A study of Elaeis guineensis with 15 samples.

Results

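The pedicel of the ripe oil palm fruit was compared between 9 h of ethylene and 0 h, the tissue before treatment, by the number of Roche pyrosequencing reads in each contig of a joint transcript assembly. Both libraries came from fruit of a tenera clone (clone C) at 150 days after pollination (DAP) and are called P150 at 9 h and P150 at 0 h here. Spikelets at 9 h had been held in sealed boxes with 10 μl/l ethylene, and those at 0 h had not. The labels and most of the study's text give 150 DAP for the pedicel, whereas a passage of its methods gives 30 DAP, and the labels were followed. The members are all contigs with a read in either of these 2 libraries, 30463 of the 51804 contigs of the ethylene experiment, and the 2 libraries are 2 of its 12 (15 in the whole series). Fruit of 1 clone were used throughout, tissue pieces were pooled for each library, and bunches came from different palms. The other libraries used beside them are P150 after 3 and 6 h of ethylene and the base of the fruit with the abscission zone (AZ), at 150 DAP (AZ150) or 30 DAP (AZ30), at 0, 3, 6 and 9 h. Each tissue and time is 1 library, so no difference has a replicate check, and every test below compares libraries. Apart from the edgeR and DESeq2 alternatives, the tests cover counting error only. No untreated pedicel library at 9 h was analysed here, so the gas and the time in the box cannot be told apart.

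The pedicel is the stalk below the AZ and does not separate when ripe fruit are shed. It serves in the study as tissue that meets the same gas without coming apart. Ethylene is made from methionine by way of S-adenosylmethionine and 1-aminocyclopropane-1-carboxylate (ACC), the last step being catalysed by ACC oxidase, and is perceived by membrane receptors. With the gas bound, the transcription factor EIN3 is stabilised and switches on AP2/ERF factors and their targets. Chitinases, glucanases, osmotins and other pathogenesis-related (PR) proteins are classic ethylene-responsive genes in leaves and fruits, and wall hydrolases and expansins are best known from ripening and organ shedding.

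The 9 h library was shallow. It holds 41588 reads in contigs, against 221123 at 0 h, 200221 at 3 h and 302391 at 6 h of the same tissue, so it has 18.8% of the depth at 0 h and shows 11977 contigs with a read, against 28469 at 0 h. Every level below is a count scaled to 100000 contig reads of its library. A single read is worth 2.40 per 100000 at 9 h and 0.452 at 0 h. A count of 0 allows up to 3 reads, which is 7.21 per 100000 at 9 h and 1.36 at 0 h. Contig lengths were not used here, so levels are compared between libraries and not between genes. Fewer cells of a type and less RNA per cell cannot be told apart in such pooled tissue.

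Markers of the AZ were close to absent from the pedicel. Of 9 contigs on this list, 3 had a read in either library, and together they held 4 reads (9.62 per 100000) at 9 h and 1 read (0.452 per 100000) at 0 h, against 1049.9 per 100000 in AZ150 at 9 h. EgPG4 and EgPGAZ2, polygalacturonases that cut the pectin between separating cells, had 0 reads in both pedicel libraries, as did 3 of the 4 contigs annotated as the MADS-box factor SEPALLATA3 and a jacalin lectin. The polygalacturonase EgPGAZ1 and the cytochrome P450 EgCYP71B35 had 2 reads each at 9 h and 0 at 0 h. At 9 h AZ150 had 312, 206 and 32.2 reads per 100000 of EgPG4, EgPGAZ1 and EgPGAZ2. The study's PCR primers for these genes are printed beside those for EgBXL2, a beta-xylosidase of the same wall-degrading group. EgBXL2 was read at 9 h in P150 and in AZ150. The primers were not matched to contig sequences here, so they do not show which transcripts the reads came from. All are written 5′ to 3′.
EgPG4 sense: acctacggaaacaagcc
EgPG4 antisense: aatcctacatcacccatttca
EgPGAZ1 sense: gtgatcccgttgccttgc
EgPGAZ1 antisense: gatgagaagagggcccaaa
EgPGAZ2 sense: cccacaaaaattgcttctgc
EgPGAZ2 antisense: gatggatatgcagccatgc
EgBXL2 sense: tccaacatccacgcccgc
EgBXL2 antisense: ccctgcctggccgccgtt
Mesocarp RNA was checked through plastid fatty acid and carotenoid genes, which summed to 149 per 100000 in P150 at 9 h and 101 at 0 h (62 and 224 reads). The 3 members called higher, all beta-carotene hydroxylases, held much of the sum at 9 h and little of it at 0 h. Stearoyl-ACP desaturases on the list had ratios below 1. EgFATB1 had 0 reads and 14 reads, too few for a call as lower. The part of mesocarp RNA in the results was not tested. No markers that define pedicel tissue were used, so the label was checked only through the near absence of AZ markers. The study annotated these contigs after picking them for a response in AZ150, and many of its picks also differed from P150. Their near absence was thus partly built in and is a weak check of the label.

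A contig was called where the two-sided Audic and Claverie test on its counts gave p under 0.01, without adjustment, and the ratio of levels was at least 2 in either direction. By this rule 443 contigs were higher at 9 h (1.45% of 30463) and 146 were lower (0.479%), 589 in all (1.93%). At a Benjamini-Hochberg adjusted p under 0.05, 267 were called, 212 higher and 55 lower, so many single calls below rest on an unadjusted p. A ratio of 2 or more, with no p asked for, was met by 13.5% of contigs, and one of 0.5 or less by 4.01%. Among the 5889 contigs with at least 10 reads over both libraries, 284 were called higher (4.82%) and 146 lower (2.48%). Those called higher held 20.6% of all reads at 9 h and 3.07% at 0 h, and those called lower held 2.47% and 9.09%. The ratios of the higher contigs had a median of 6.65 and reached 346, and 127 were at least 10-fold higher. The lower contigs had a median fold of 3.63 and a largest of 19, and 8 of them were at least 10-fold lower. The depth allows rises and falls unequally. For a call, 3 reads at 9 h suffice where 0 h has 0, and 56 of the higher contigs had exactly 3, whereas a contig at 0 reads at 9 h needs 32 reads at 0 h. Among the 244 contigs with at least 100 reads over both libraries, 27 were higher and 56 lower.

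The balance of rises and falls hangs on how the libraries are scaled. TMM factors lower every ratio by 0.48 on the log2 scale and give 250 higher and 393 lower contigs. DESeq2 size factors lower them by 1.07 and give 136 and 1082. The median ratio of 760 well covered contigs, an alternative chosen after seeing the data, lowers them by 0.27 and gives 300 and 262. Changes below are stated on the scale of reads in contigs, with counts under other factors beside the lists. In the count models that follow, the spread is how far the other 10 libraries depart from additive effects of tissue and time. No group has a replicate, so it is not a spread between like libraries. With the spread taken from the other 10 libraries, edgeR's quasi-likelihood test called 9 contigs at an adjusted p under 0.05, all higher: a basic chitinase, a PR protein, a beta-1,3-glucanase, an osmotin, an expansin-like protein, EgBXL2, an EFE-type ACC oxidase, an ASN3-type asparagine synthetase and the RNA helicase EMB3011. DESeq2's Wald test called 7 higher and 20 lower, and each of the lower ones had 0 reads at 9 h and no more than 9 at 0 h. Of the 7 higher, the unannotated CL1Contig2322 had 1 read at 9 h and 0 at 0 h. The rest of the higher ones were also called by edgeR.

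**Figure D1:**
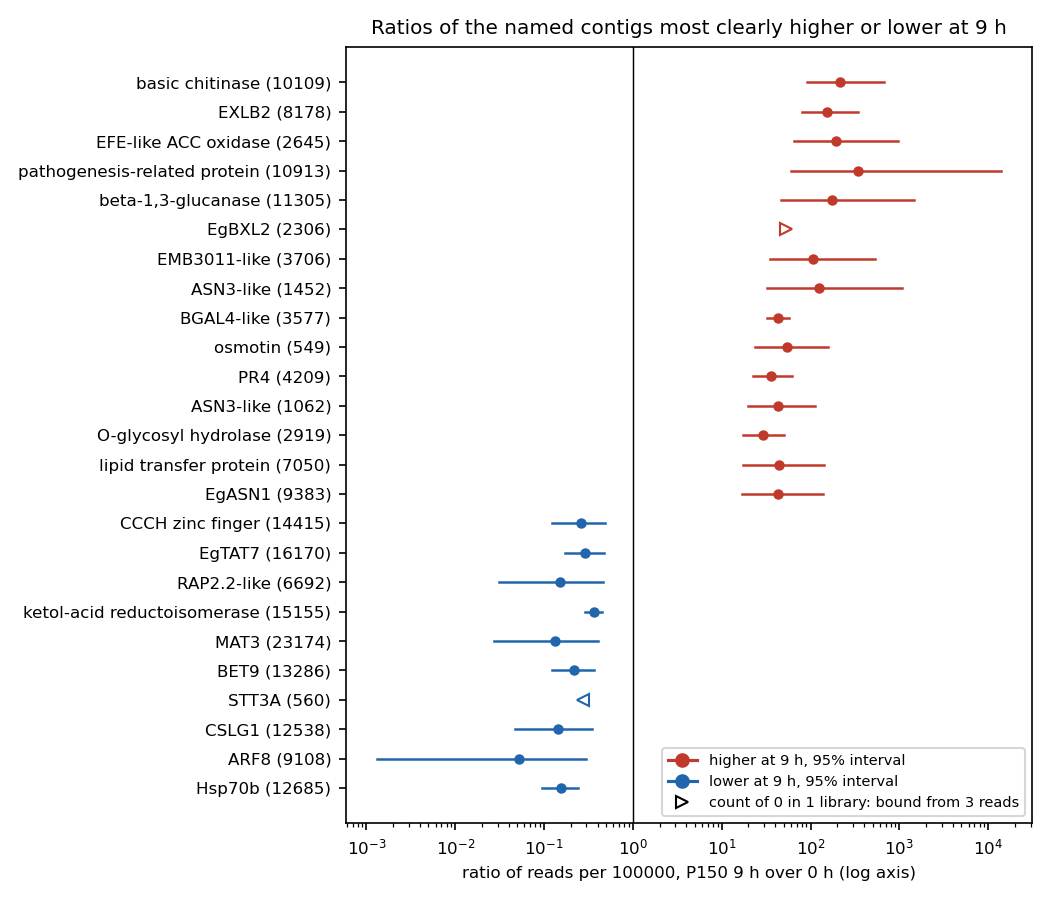
Ratio of reads per 100000 in P150 at 9 h over 0 h for the 15 annotated contigs most clearly higher and the 10 most clearly lower, on a log axis, with exact 95% intervals (contig numbers in brackets). Points right of the line at 1 were higher at 9 h. Open triangles mark contigs with 0 reads in 1 library, for which the ratio is a bound. The higher contigs reach 346-fold, while the lower ones lie between 0.0526 and 0.362.

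Gene names come from annotations that cover 1050 contigs, all picked by the study for a response in AZ150 and many also for a level that differed from that in P150. A list of such genes is therefore not an independent sample of the pedicel transcriptome. Among the 997 annotated contigs with a read, 221 were called higher (22.2%) and 28 lower (2.81%), and each list below is to be read against those shares and against the median log2 ratio of 0.83 over annotated contigs. The other 222 higher and 118 lower contigs have no annotation here. Members of a list that are named beside its 3 best covered ones were chosen after their values were seen. Where a list had few reads at 0 h, a lack of lower contigs says little. A contig at 0 reads at 9 h needs 32 reads at 0 h to be called.

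Ethylene synthesis moved in both directions. Of 8 contigs on the list, 3 were called higher and 1 lower. The contig CL1Contig2645, annotated as the ethylene-forming enzyme EFE, an ACC oxidase (LOC105039092), had 110 reads at 9 h and 3 reads at 0 h, which is 264 and 1.36 per 100000 and a ratio of 195 (95% interval 65.0 to 960). Over 0, 3, 6 and 9 h its level was 1.36, 88.9, 186 and 264 per 100000. EgACO5, another ACC oxidase, had 7 reads at 9 h and 1 read at 0 h, a ratio of 37.2 with an interval from 4.78 to 1677. Its highest level in the pedicel was 28.4 per 100000 at 6 h. The third, CL1Contig9395, is annotated only as a member of the 2-oxoglutarate and iron dependent oxygenases, the wider family of ACC oxidase, and had 10 reads and 8 reads (ratio 6.65), a call that was lost with DESeq2 size factors.

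Upstream of ACC oxidase, MAT3 (CL1Contig23174), a methionine adenosyltransferase that makes S-adenosylmethionine, fell to 7.21 per 100000 at 9 h, against 53.8 at 0 h. Its ratio was 0.134 (0.0273 to 0.401), with 3 reads and 119 reads. A second pair of ACC oxidase contigs was not called. CL1Contig6785 had 7.21 per 100000 at 9 h and 8.59 at 0 h after 46.9 at 3 h, and CL1Contig8422 of the same locus (LOC105035107) had 1 read in each library. Contigs of 1 locus may split the reads of a single gene, and CL1Contig11400, also at LOC105039092, had 1 read at 9 h and 0 at 0 h.

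Among 5 receptor and signalling contigs, 2 were higher and 1 lower. The ethylene receptor EgEIN4 stood at 50.5 per 100000 at 9 h and 24.0 at 0 h, a ratio of 2.11 (1.21 to 3.55), and the receptor ETR2 (CL1Contig10493) had 19 reads and 33 reads, a ratio of 3.06. EgEIN3, the transcription factor that carries the signal into the nucleus, fell to 31.3 per 100000 at 9 h, against 68.7 at 0 h (ratio 0.455, 0.237 to 0.801). EBF2, an F-box protein that directs EIN3 to degradation, had 52.9 and 60.1 per 100000 and was not called. Neither receptor stayed called with TMM factors, while EgEIN3 did. By the Audic and Claverie test with Benjamini-Hochberg adjustment, p was 0.245 for EgEIN3 and 0.449 for EgEIN4, so neither call held after adjustment.

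AP2/ERF factors, the usual next step, gave 4 higher and 1 lower of 15. The best covered ones, 2 ERF9 contigs (CL1Contig3535 and CL1Contig5158) and CL1Contig8702, had ratios of 1.38, 1.14 and 0.985 and were not called. CL1Contig15779, an AP2 domain factor, had 12 reads at 9 h and 1 at 0 h (ratio 63.8), and RAP2.3 (CL1Contig9895), also known as an ethylene-responsive element binding factor, had 10 and 13 reads (4.09). The RAP2.2-like CL1Contig6692 fell to 7.21 per 100000 at 9 h, against 47.5 at 0 h (ratio 0.152, 0.0308 to 0.456), while EgRAP2.2 (CL1Contig12428), a different contig, had 21 reads and 51 reads and a ratio of 2.19. With TMM factors 1 contig of the list was higher and 1 lower, and with DESeq2 size factors 1 and 3.

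Of 19 NAC, MYB and WRKY contigs, 12 were higher and none lower, with a median log2 ratio of 1.76. ANAC083 had 89.0 per 100000 at 9 h and 19.9 at 0 h, a ratio of 4.47 (2.81 to 7.08). ANAC017, a factor that in Arabidopsis carries signals from mitochondria, had 67.3 and 21.3 (3.17, 1.91 to 5.16), and was not called with DESeq2 size factors, at 1.51. WRKY31 had 40.9 and 23.5 per 100000 and was not called. NAP (CL1Contig4289), an activator of leaf senescence in Arabidopsis, had 23 reads at 9 h and 36 reads at 0 h, which at the depths of these libraries is a ratio of 3.40, and 3 contigs of the stress-related factor ATAF1 had ratios from 2.76 to 4.91. MYB78 and MYB108 had 8 and 9 reads at 9 h, against 1 and 5 at 0 h. With TMM factors 9 of the 12 were called higher, and with DESeq2 size factors 4.

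Genes of other hormones gave 4 higher and 1 lower of 23 with a read. GA2OX2 (CL1Contig25316), a gibberellin 2-oxidase that inactivates gibberellins, had 279 per 100000 at 9 h and 11.8 at 0 h (ratio 23.7, 15.4 to 37.8). Its course was not a steady one, with 11.8, 358, 50.6 and 279 per 100000 at 0, 3, 6 and 9 h, and AZ150 had the same high and low times (60.4, 511, 146 and 414). ARF8, an auxin response factor, fell to 2.40 per 100000 at 9 h, a single read, against 45.7 at 0 h (ratio 0.0526, 0.00132 to 0.300). The jasmonate repressor JAZ2 had 38.5 and 28.5 per 100000 and was not called, although it stood at 57.9 at 3 h and 6.61 at 6 h. The others called higher were a lipoxygenase, EgGH3.5, which conjugates auxin, and EgMYC2, a jasmonate-responsive factor, with ratios of 5.80, at least 7.09 (4 reads and 0, exact lower limit 3.51) and 18.6. With DESeq2 size factors this list had 3 higher and 4 lower contigs.

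The 24 contigs of chitinases, glucanases and PR proteins together held 2385 per 100000 at 9 h, against 169 at 0 h, and 17 of them were called higher and none lower (median log2 ratio 3.77). The basic chitinase CL1Contig10109 (LOC105059691), an enzyme that cuts the chitin of fungal walls, had 203 reads at 9 h and 5 at 0 h, or 488 and 2.26 per 100000, a ratio of 216 (91.0 to 672). The PR protein CL1Contig10913 had 65 reads and 1 read, a ratio of 346 (59.9 to 13858), and the wide interval reflects the single read at 0 h. Its earlier levels were 7.49 at 3 h and 3.97 at 6 h, so nearly all of the difference arose between the 6 h and 9 h libraries.

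Further PR genes showed the same direction. PR4, a chitin-binding protein, had 327 per 100000 at 9 h and 9.04 at 0 h (ratio 36.2, 22.5 to 61.1). The osmotin CL1Contig549, a PR protein that permeabilises fungal membranes, had 149 and 2.71 (54.9, 23.9 to 155), and the class IV chitinase CL1Contig23312 had 565 and 43.0 (13.2, 10.3 to 16.9). A beta-1,3-glucanase, CL1Contig11305 (LOC105033964), which the name patterns of the list did not catch, had 156 and 0.904 (173, 46.0 to 1457). EgOSM34, a thaumatin-like protein, had 8 reads at 9 h and 0 at 0 h, at least 14.2-fold higher with the 0 taken as 3 reads, and with an exact lower limit of 9.08. The acidic endochitinase CL1Contig7836 was not called, at 40.9 and 25.3 per 100000. Under TMM factors 16 of the list were higher and under DESeq2 size factors 13, with none lower.

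**Figure D2:**
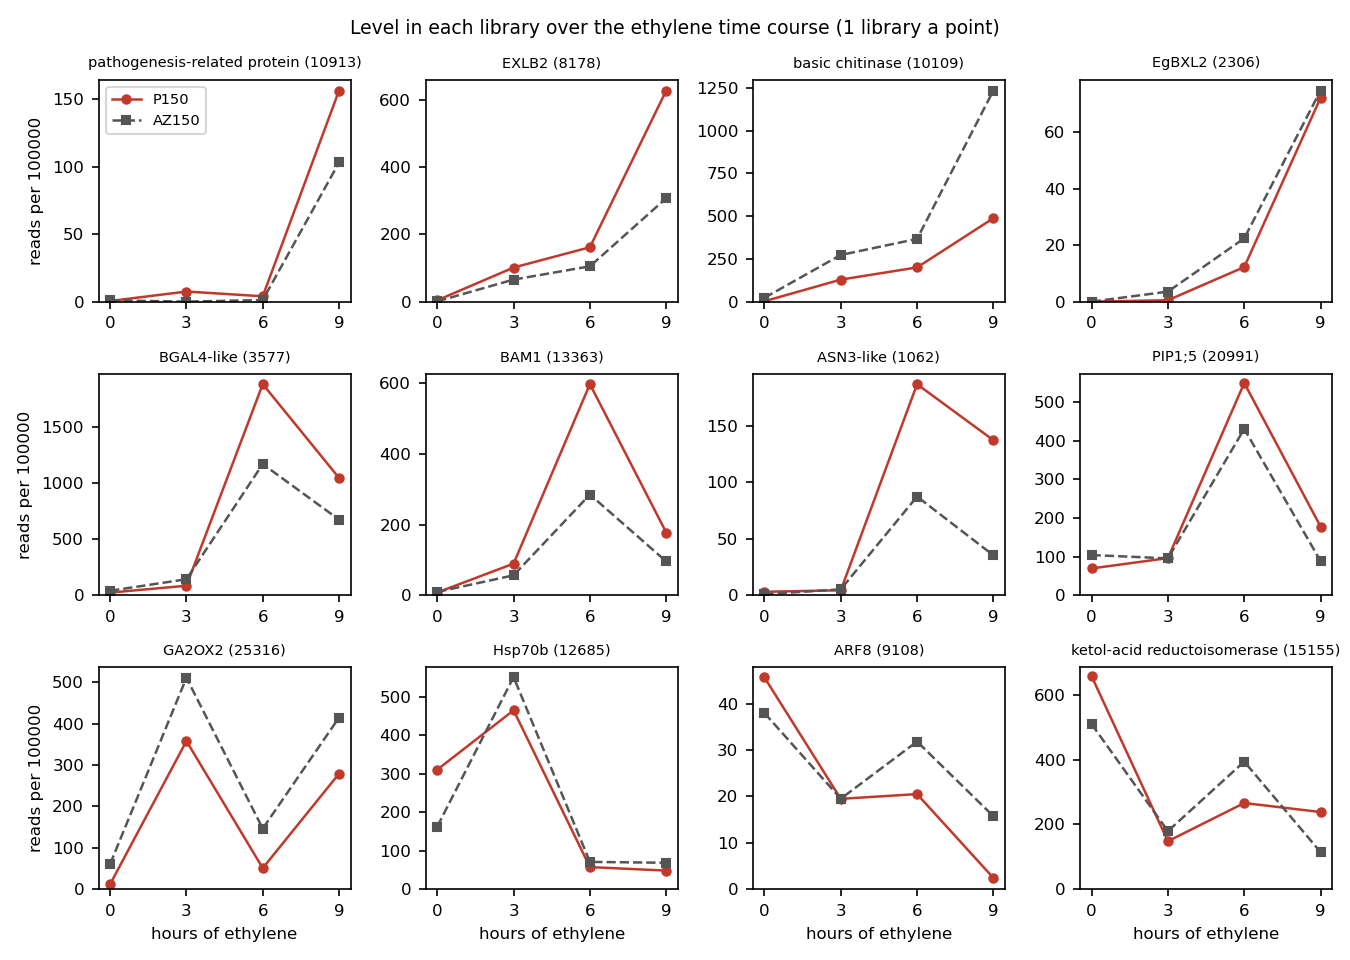
Level in reads per 100000 at 0, 3, 6 and 9 h in P150 (red circles) and AZ150 (grey squares) for 12 named contigs, with 1 library a point and no error bars because there are no replicates. The PR protein, EXLB2, the basic chitinase and EgBXL2 stood highest in P150 at 9 h, BGAL4, BAM1, ASN3 and PIP1;5 stood highest at 6 h, and GA2OX2 stood high at 3 h and 9 h with 50.6 at 6 h. The vertical axes differ between panels and start at 0.

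Wall-loosening proteins were higher in 5 of 7 contigs and lower in 1. EXLB2 (CL1Contig8178, LOC105048815), an expansin-like protein, had 261 reads at 9 h and 9 at 0 h, or 628 and 4.07 per 100000, a ratio of 154 (80.0 to 341). It climbed through 101 at 3 h and 162 at 6 h. EXLB1 (CL1Contig4635) had 60.1 and 4.97 per 100000 (12.1, 5.74 to 27.2), and another EXLB2 contig, CL1Contig7453, had 21 reads and 2 reads (55.8). TCH4 (CL1Contig17330), a xyloglucan endotransglucosylase that cuts and rejoins xyloglucan, went the other way, with 28.9 per 100000 at 9 h and 71.0 at 0 h (ratio 0.406, 0.206 to 0.730). Its p in the Audic and Claverie test was 0.0931 after Benjamini-Hochberg adjustment. With TMM factors 4 of the list were higher and 1 lower, and with DESeq2 size factors 3 and 1.

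Hydrolases of pectin and matrix glycans were higher in 7 of 12 contigs with a read and lower in none, and summed to 1267 per 100000 at 9 h, against 45.2 at 0 h. Of the list's 527 reads at 9 h, 435 were in BGAL4 (CL1Contig3577, LOC105040419), a beta-galactosidase that trims galactose from wall polymers. It had 1046 per 100000 at 9 h and 24.4 at 0 h (ratio 42.8, 32.2 to 57.9), and its level at 6 h was 1882. At 0 h the list held 100 reads, 54 of them in BGAL4. Hardly any other member had enough reads for a fall to be called, so the lack of lower contigs says little. EgBXL2, whose primers are shown above, had 30 reads at 9 h and 0 at 0 h. With the 0 taken as 3 reads it was at least 53.2-fold higher, and the exact lower limit of the ratio was 40.6. Its levels in P150 and AZ150 at 9 h were 72.1 and 74.7 per 100000. The beta-glucosidase EgBGLC1 had 45.7 and 7.69 per 100000 (5.94, 2.92 to 12.2). A polygalacturonase other than the AZ markers, CL1Contig8622, had 14 reads at 9 h and 3 at 0 h (24.8), BXL1 (CL1Contig2278) had 9 and 0, and EgPMEI, which the study calls a pectinesterase, had 4 and 0. All 7 calls held with TMM factors, and with DESeq2 size factors the list had 5 higher and none lower.

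CL1Contig7306, annotated as a hydrolase of O-glycosyl compounds, is on no list and was the annotated contig with the smallest p. It had 707 reads at 9 h and 406 at 0 h, or 1700.0 and 184 per 100000 (ratio 9.26, 8.18 to 10.5), after 622 at 3 h and 750.0 at 6 h. A related contig, CL1Contig2919, had 236 and 8.14 per 100000 (28.9, 17.4 to 50.9). A lipid transfer protein, CL1Contig7050, had 98.6 and 2.26 (43.6, 17.2 to 141). EMB3011 (CL1Contig3706), an RNA helicase required for embryo development in Arabidopsis, had 144 and 1.36 (106, 34.7 to 530) and stood at 191 at 6 h.

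Starch and sucrose genes were higher in 10 of 18 contigs and lower in none, with a summed level of 1116 per 100000 at 9 h and 440.0 at 0 h. The beta-amylase BAM1 (CL1Contig13363), which releases maltose from starch, had 178 per 100000 at 9 h and 8.14 at 0 h (21.9, 12.9 to 38.9). The alpha-amylase AMY3 had 154 and 30.3 (5.08, 3.55 to 7.26). A SUS6 sucrose synthase, CL1Contig4716, had 115 and 23.5 (4.91, 3.25 to 7.41), whereas a second SUS6 contig, CL1Contig13612, had 286 and 203 and was not called. The sucrose transporter SUT2 had 76.9 and 78.7 per 100000, and was called lower with DESeq2 size factors alone, at 0.467. The first 3 of these genes, like SUT2, stood highest at 6 h, with 598, 266, 357 and 240 per 100000. With TMM factors 8 of the list were higher and none lower, and with DESeq2 size factors 4 and 1.

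In glycolysis and fermentation 2 of 19 contigs with a read were called higher and none lower, with a median log2 ratio of 0.74. These were EgPFK2, a phosphofructokinase, with 8 reads at 9 h and 9 at 0 h (4.73), and EgFBA6, an aldolase, with 18 and 39 (2.45). Neither was called with TMM factors. Enolase (CL1Contig1598) had 123 and 114 per 100000, and the glyceraldehyde-3-phosphate dehydrogenase GAPC2 (CL1Contig26302) 129.8 and 140.2, with ratios of 1.08 (0.780 to 1.46) and 0.926 (0.680 to 1.24). A phosphoglycerate mutase, CL1Contig18704, had 113 and 59.7 and fell short of 2-fold.

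In amino acid and nitrogen metabolism 13 of 26 contigs were higher and 1 lower. Asparagine synthetases, which load nitrogen onto asparagine for transport, led them. The ASN3 contig CL1Contig1452 had 113 per 100000 at 9 h and 0.904 at 0 h (125, 32.7 to 1062), and CL1Contig1062, assigned to the same locus (LOC105045849), had 137 and 3.17 (43.3, 19.7 to 113). EgASN1 (CL1Contig9383) had 96.2 and 2.26 (42.5, 16.8 to 138). Their levels were 3.5, 4.5 and 4.0 per 100000 at 3 h and 136, 187 and 119.7 at 6 h. At 9 h AZ150 had 24.4, 35.4 and 283 per 100000 of these contigs.

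Enzymes that break amino acids down were also among the higher ones. Lysine-ketoglutarate reductase (CL1Contig19815), the first enzyme of lysine breakdown, had 43 reads at 9 h and 15 at 0 h (15.2), EgLKR/SDH had 10 and 0, and EgMCCB, of leucine breakdown, had 11 and 8 (7.31). Methionine gamma-lyase (CL1Contig18448), which splits methionine, had 14 and 2 (37.2). ASP4, an aspartate aminotransferase, was called higher at 76.9 and 37.1 per 100000 (ratio 2.07, 1.33 to 3.16) on this scale, and its ratio was 1.49 with TMM factors and 0.991 with DESeq2 size factors. EgTAT7, a tyrosine aminotransferase, fell to 43.3 per 100000 at 9 h, against 148 at 0 h (0.293, 0.171 to 0.470). The called member CL1Contig23615 is annotated as a trimethylguanosine synthase, which is no enzyme of amino acids and was caught by its name. With TMM factors 10 of the list were higher and 1 lower.

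Transporters and proton pumps gave 8 higher and 1 lower of 21 with a read. The aquaporin PIP1;5, a water channel of the plasma membrane, had 178 per 100000 at 9 h and 69.6 at 0 h (2.55, 1.91 to 3.39), after 549 at 6 h. Another aquaporin, PIP2;2 (CL1Contig1241), had 26.4 and 76.0 (0.348, 0.171 to 0.639), also after its highest level, 149 at 6 h. Nitrogen and sulphur carriers were among the higher contigs, with AAP6, an amino acid permease, at 10 reads at 9 h and 1 at 0 h, the nitrate transporter NRT1.1 at 10 and 9, and EgSULTR3;5 at 8 and 2. The proton pump AHA5 had 188 and 100.4 per 100000, a ratio of 1.87 (1.42 to 2.43) that fell short of 2-fold, and EgHA2 had 60.1 and 60.6 and was called lower with DESeq2 size factors alone, at 0.474. With TMM factors PIP1;5 was not called, at 1.84, and the list had 5 higher and 1 lower. With DESeq2 size factors the list had 4 higher and 7 lower contigs.

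**Figure D3:**
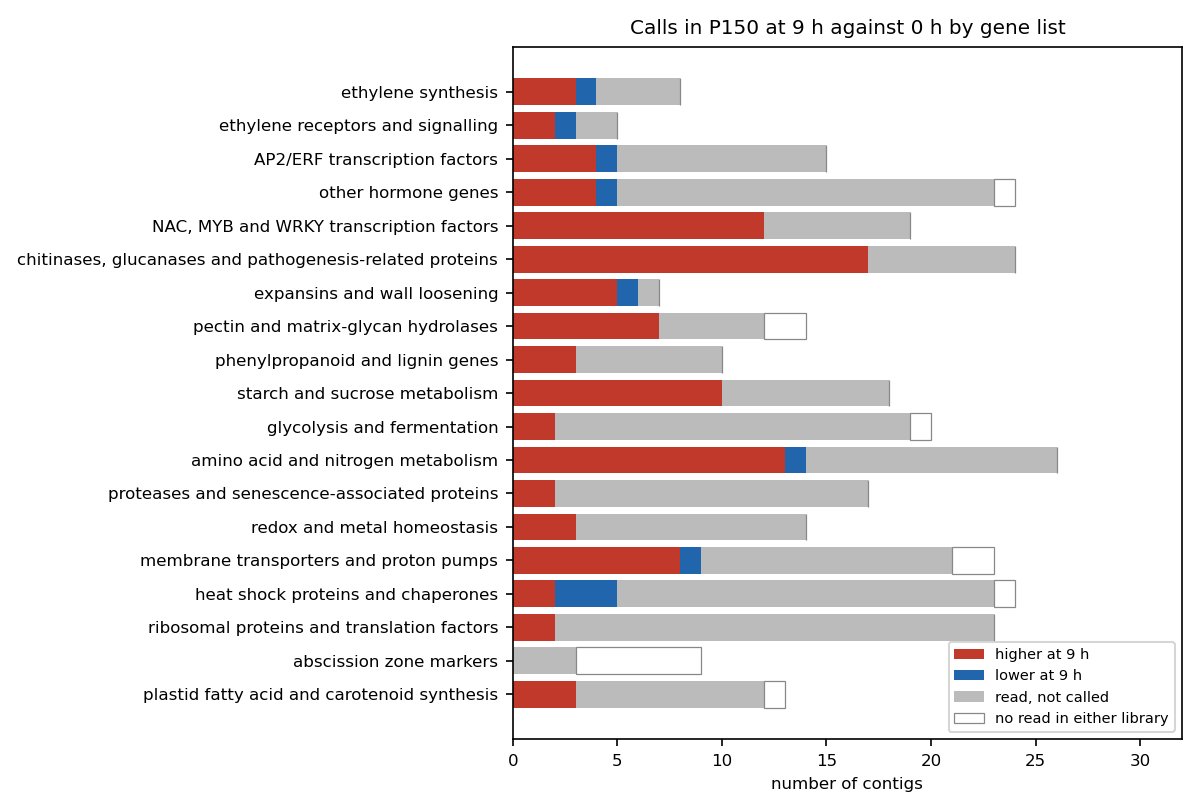
Number of contigs in each of the 19 gene lists called higher (red) or lower (blue) in P150 at 9 h against 0 h, read but not called (grey), or with no read in either library (white). The chitinase list had 17 of 24 called higher, the heat shock list 2 higher and 3 lower of 23 with a read, and none of the 9 abscission zone markers was called.

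The protease, redox, phenylpropanoid and plastid lists had 2 or 3 calls each. Of 17 proteases and senescence-associated contigs 2 were higher, EgYLS9, at 103 and 32.6 per 100000 (3.18, 2.12 to 4.70), and a cysteine proteinase, CL1Contig16288, with 23 reads at 9 h and 32 at 0 h. The vacuolar proteases RD19 and RD21 had ratios of 1.98 and 1.65 with intervals above 1 and did not reach 2-fold. With DESeq2 size factors this list had 0 higher and 2 lower, and EgYLS9 was at 1.52. In redox and metal homeostasis 3 of 14 were higher: EgGSH1, which makes the precursor of glutathione, the metallothionein MT2A and the manganese superoxide dismutase MSD1, with ratios of 8.51, 5.32 and 3.19. The 2 metallothionein 3 contigs had ratios of 1.44 and 0.629 and were not called, although the one at 0.629 (CL1Contig15883) was called lower with TMM factors, when the list had 2 higher and 1 lower. In the phenylpropanoid list 3 of 10 were higher, EgLAC7, a laccase of lignin polymerisation, at 11 reads and 0, and 2 cinnamyl-alcohol dehydrogenases at 8 and 0 and at 9 and 8 reads, the last of which (CL1Contig9156) lost its call with DESeq2 size factors. The 3 higher of 12 plastid contigs with a read were all beta-carotene hydroxylases, which turn beta-carotene into xanthophylls, with 16, 10 and 4 reads at 9 h and 2, 0 and 0 at 0 h. Stearoyl-ACP desaturases of fatty acid synthesis had ratios of 0.778 and 0.371 and were not called, although the one at 0.371 (CL1Contig7507) was called lower with TMM factors.

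Heat shock proteins and chaperones summed to 659 per 100000 at 9 h and 1118 at 0 h, with 2 contigs higher and 3 lower of 23 with a read and a median log2 ratio of -0.33. Hsp70b (CL1Contig12685), a chaperone of the cytosol, fell to 48.1 per 100000 at 9 h, against 311 at 0 h (ratio 0.155, 0.0940 to 0.241), after 465 at 3 h and 57.2 at 6 h. An HSP90 (CL1Contig18225) and the co-chaperone J2 (CL1Contig15267) had ratios of 0.349 and 0.365. SHEPHERD, the HSP90 of the endoplasmic reticulum, had 106 and 198 (0.535, 0.383 to 0.731) and another Hsp70b contig, CL1Contig4584, 86.6 and 140.2, short of 2-fold, and both were called lower with TMM factors. The higher ones were EgJ8 and EgERD1, a chloroplast protease subunit, at ratios of 6.77 and 4.69. With TMM factors 7 of the list were lower and with DESeq2 size factors 10.

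Ribosomal proteins and translation factors had 2 of 23 called higher, the 40S protein S29 with 29 reads at 9 h and 3 at 0 h (51.4) and the 60S protein L17 with 9 in each library (5.32). The best covered members had ratios below 1, with 137 and 189 per 100000 for an elongation factor Tu family protein (CL1Contig12052), 40.9 and 69.6 for eIF-1A, and 28.9 and 33.0 for eIF-5A. None of these 3 was called, but eIF-1A (CL1Contig1138) was called lower with TMM factors, at 0.422, and with the median ratio of well covered contigs, at 0.486. With TMM factors 1 contig of the list was higher and 1 lower. With DESeq2 size factors 1 contig of the list was higher and 9 were lower, so its direction depends on the scaling.

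Of the 10 annotated contigs that fell most clearly, MAT3, CL1Contig6692, EgTAT7, Hsp70b and ARF8 are described above and the others are on no list. Ketol-acid reductoisomerase (CL1Contig15155), an enzyme of branched-chain amino acid synthesis, had 238 per 100000 at 9 h and 658 at 0 h (0.362, 0.292 to 0.444), and its level was already 148 at 3 h. BET9, a bromodomain protein that reads acetylated histones, had 38.5 and 175 (0.220, 0.124 to 0.362). A CCCH zinc finger protein, CL1Contig14415, had 24.0 and 91.8 (0.262, 0.124 to 0.492), and CSLG1, a cellulose synthase-like protein, 12.0 and 82.8 (0.145, 0.0466 to 0.345). STT3A, a subunit of the enzyme that adds glycans to proteins, had 0 reads at 9 h and 58 at 0 h, at least 3.64-fold lower with the 0 taken as 3 reads, and with an exact upper limit of the ratio of 0.349. BET9 and the zinc finger were at 31.0 and 19.5 per 100000 at 3 h, and CSLG1 stood at 10.5, 67.8 and 12.0 at 3, 6 and 9 h.

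Of the contigs without annotation, those with the highest lower limits were named. CL1Contig4788 had 6 reads at 9 h and 0 at 0 h, at least 10.6-fold higher with the 0 taken as 3 reads and with an exact lower limit of 6.26, and CL1Contig6306 had 45 and 24 reads (9.97, 5.95 to 17.1). CL1Contig18101 and CL1Contig13703 had 0 reads at 9 h and 119 and 120 reads at 0 h. They were at least 7.46-fold and 7.52-fold lower with the 0 taken as 3 reads, and the exact upper limits of their ratios were 0.167 and 0.166. CL1Contig18101 was nearly gone before 9 h, with 4.99 per 100000 at 3 h and 0.992 at 6 h.

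The 9 h library was next compared with that of 6 h, the nearest earlier time, which shares the 9 h library with the comparison above. Of 30221 contigs with a read in either, 320 were higher at 9 h (1.06%) and 107 lower (0.354%). With TMM factors the balance turned round, at 121 higher and 513 lower. Among annotated contigs the 3 with the smallest p for a rise were CL1Contig7306, EXLB2 and the PR protein CL1Contig10913, at 2.27, 3.88 and 39.4 times their level at 6 h. With TMM factors CL1Contig7306 was not called, at 1.35. The 3 for a fall were BAM1, PIP1;5 and SUS6 (CL1Contig4716), at 0.298, 0.324 and 0.323 times. EgBXL2, GA2OX2 and JAZ2 were also called higher at 9 h than at 6 h, with ratios of 5.90, 5.51 and 5.82. BGAL4, at 0.556, did not reach 2-fold, but was called lower with TMM factors, at 0.331.

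The contigs called in P150 at 9 h were also followed through the other libraries as a description. Those called higher took 3.07, 9.57, 15.8 and 20.6% of the reads of P150 at 0, 3, 6 and 9 h. In AZ150 the same contigs took 4.06, 10.3, 14.2 and 18.9%, and in AZ30 2.84, 5.68, 4.36 and 14.7%. Those called lower took 9.09, 3.91, 3.57 and 2.47% in P150 and 8.02, 4.59, 4.40 and 2.77% in AZ150. The contigs were chosen on the 0 h and 9 h libraries of P150, which fixes the direction of its shares.

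Whether the response at 9 h differed between pedicel and AZ was tested for each of 9297 contigs with at least 10 reads over the 4 libraries, by an exact conditional test of the ratio of the 2 ratios with Benjamini-Hochberg adjustment. At an adjusted p under 0.05, 27 contigs (0.290%) were relatively higher in P150 and 7 (0.0753%) relatively lower, 34 in all. With TMM factors the counts were 14 and 56, and 21 of the 34 stayed below the threshold. Among the 947 annotated contigs tested, 10 were relatively higher (1.06%) and 7 relatively lower (0.739%). Many of the annotated contigs were picked by the study for differing between these tissues.

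The EFE-type ACC oxidase CL1Contig2645 had the smallest adjusted p of the annotated contigs but for EgTAT7. Its ratio at 9 h over 0 h was 195 in P150 and 14 in AZ150 (adjusted p = 4.3e-06, exact test, Benjamini-Hochberg). Its level at 9 h was nevertheless lower in P150, at 264 per 100000 against 627 in AZ150. At 0 h it was 1.36 in P150 and 44.8 in AZ150. The other ACC oxidase contig, CL1Contig6785, had a ratio of 0.840 in P150, whereas in AZ150 it was at least 21.3-fold higher at 9 h (79 reads, against 0 reads at 0 h, exact lower limit 16.9). EgTAT7 fell in both tissues, with a ratio of 0.293 in P150 and 0.0133 in AZ150.

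The unannotated CL1Contig16380, named after its values were seen, had the smallest adjusted p of all, with 481 and 1916 reads in P150 (ratio 1.33) and 185 and 1082 in AZ150 (ratio 0.138).

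BGAL4, GA2OX2 and EMB3011 rose more in P150 than in AZ150, with ratios of 42.8 and 16.5, 23.7 and 6.86, and 106 and 6.05. SUS6 (CL1Contig4716) and PIP1;5 had ratios of 4.91 and 2.55 in P150, against 1.08 and 0.852 in AZ150. With TMM factors the differences for BGAL4, GA2OX2, SUS6 and PIP1;5 were no longer below the threshold. In the other direction, EgHA2 and the acidic endochitinase CL1Contig7836 had ratios of 0.992 and 1.61 in P150 and of 3.18 and 7.46 in AZ150. CL1Contig7306 rose 9.26-fold in P150 and 14.1-fold in AZ150, and Hsp70b (CL1Contig12685) fell to 0.155 and to 0.420 of its level at 0 h. The basic chitinase CL1Contig10109 missed the threshold, which does not show that the tissues responded alike. It had ratios of 216 in P150 and 55.1 in AZ150 (adjusted p = 0.349, exact test, Benjamini-Hochberg).

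**Figure D4:**
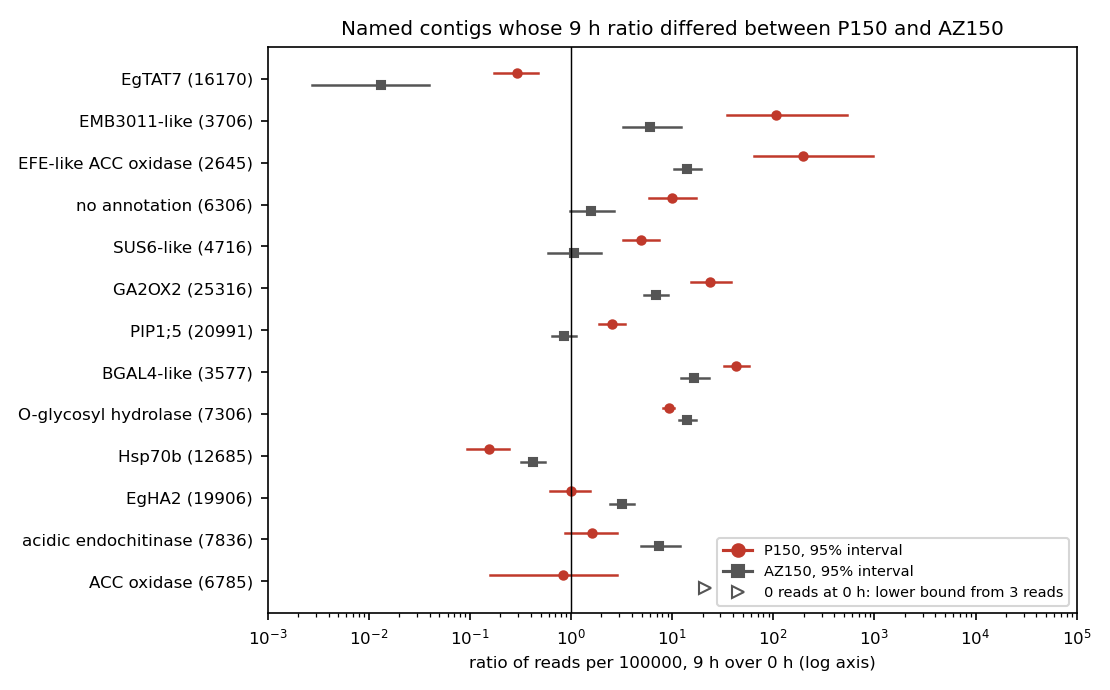
Ratio of reads per 100000 at 9 h over 0 h in P150 (red circles) and AZ150 (grey squares) for the 13 named contigs whose ratios differed at an adjusted p under 0.05, on a log axis with exact 95% intervals. EgTAT7, EMB3011, the EFE-type ACC oxidase and 5 others had the higher ratio in P150, and the remaining 5 had the higher ratio in AZ150. The triangle is a lower bound, since the ACC oxidase CL1Contig6785 had 0 reads in AZ150 at 0 h.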

How the data were processed

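The files used hold pyrosequencing read counts per contig, which the authors made by assembling the reads of all 12 ethylene libraries together and deposited for each library. The assembler version is not given in the sources used here. Counts were joined on the contig and divided by the library's reads in contigs, times 100000. The libraries range from 26560 to 302391 such reads. Counts were compared by the Audic and Claverie test, with both tails holding the observed count and the smaller tail doubled, and by exact conditional 95% intervals. A count of 0 was taken as 3 reads for ratios. Reads are not independent molecules, so intervals cover counting error only. Alternatives used TMM factors and the quasi-likelihood test of edgeR 4.0.16, with tissue, time and a term for each compared library (4 residual degrees of freedom), and DESeq2 1.42.0, in R 4.3.3, beside scipy 1.17.1 in Python 3.11.15. The tests were tested on simulated data. Members and lists were chosen with earlier results of these data known. Named are the 15 annotated contigs with the highest lower bound, the 10 with the lowest upper bound, the 3 best covered of each list, all AZ markers and ethylene synthesis contigs, 2 unannotated contigs each way, and the 3 each way with the smallest p against 6 h and in the tissue comparison. Loci came from the study's table (502) or from RefSeq names of assembly EG11 (433). No coordinates are given because builds differ. 17 columns of per-sample values were not used, nor were the 3 field libraries or the authors' own comparison columns.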

Additional observations from a re-analysis of the deposited data

Results flagged for a closer look

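The difference between pedicel and AZ in the ratio at 9 h over 0 h passed the exact test for 34 contigs, and 13 of the named contigs were among them. Their adjusted p-values, by the exact conditional test with Benjamini-Hochberg adjustment, follow. Among those with the higher ratio in P150 they were 3.48e-06 for EgTAT7 (CL1Contig16170), 4.3e-06 for the EFE-type ACC oxidase CL1Contig2645, 6.57e-05 for PIP1;5 (CL1Contig20991) and 0.000359 for the unannotated CL1Contig6306. GA2OX2 (CL1Contig25316) had 0.000556, EMB3011 (CL1Contig3706) 0.00161, BGAL4 (CL1Contig3577) 0.00921 and SUS6 (CL1Contig4716) 0.0172. Among those with the higher ratio in AZ150 they were 0.000109 for the ACC oxidase CL1Contig6785, 0.00161 for EgHA2 (CL1Contig19906), 0.00318 for the acidic endochitinase CL1Contig7836, 0.0242 for Hsp70b (CL1Contig12685) and 0.044 for the hydrolase CL1Contig7306. With TMM factors 9 of the 13 stayed below 0.05, whereas PIP1;5, GA2OX2, BGAL4 and SUS6 did not. Each tissue and time is 1 library, so these p-values compare libraries.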

How the results depend on the processing

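No paired analysis was possible because each group is 1 library, and for the same reason no replicate could be left out. The 589 calls at 9 h against 0 h became 1218 with DESeq2 size factors, 267 with Benjamini-Hochberg adjustment, 99 with Bonferroni adjustment, 9 by edgeR's quasi-likelihood test (570 contigs at an unadjusted p under 0.05) and 27 by DESeq2's Wald test (399 at an unadjusted p under 0.05). Leaving the observed count out of the upper tail, an alternative chosen after seeing the data, gave 1065. Against 6 h, TMM factors gave 634 calls (121 higher, 513 lower) in place of 427 (320 and 107). For the difference between tissues TMM factors gave 70 in place of 34. With TMM factors the receptor list had 1 call, AP2/ERF factors 2, glycolysis 0 and heat shock proteins 9. With DESeq2 size factors the NAC, MYB and WRKY list had 4, starch and sucrose 5, glycolysis 1, heat shock proteins 11 and ribosomal proteins 10. With the median ratio of well covered contigs AP2/ERF factors had 2 and glycolysis 0, and without the fold limit the proteases had 4. Of 86 named contigs with a ratio, ASP4 (CL1Contig7693) was the called one that changed direction with DESeq2 size factors, to a ratio of 0.991. Under these factors 14 others gained a call as lower and 6 lost theirs. Uncalled contigs changed direction too, among them AHA5 (1.87 to 0.892) and WRKY31 (1.74 to 0.830). With TMM factors 78 kept their call or lack of one, 5 gained a call and 3 lost it. Some uncalled contigs changed direction, among them JAZ2 (1.35 to 0.971) and enolase (CL1Contig1598, 1.08 to 0.774). The cause was not tested. Depth limits falls most, since a contig with 0 reads at 9 h needs 32 reads at 0 h.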
